A study of Mus musculus with 6 samples.

Results

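The 12 ribose-methylated sites described here are those of 28S rRNA with a human position under 2000, out of 108 listed sites in mouse rRNA. The rule took them from the authors' overview table by position alone, and no measured value entered it. Of the listed sites 66 are 28S sites, and 54 of these fall outside the stretch. In the site names LSU stands for the large ribosomal subunit, followed by the base and its human position. The last site inside the limit is LSU-C1868 (mouse 28S position 1684), and the first site beyond it is LSU-C2338 (mouse position 2109). The other members are LSU-A389, LSU-A391, LSU-G1303, LSU-A1313, LSU-C1327, LSU-G1509, LSU-A1511, LSU-A1521, LSU-G1612, LSU-G1747 and LSU-A1858.

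RiboMeth-seq was carried out on total RNA of 6 mouse whole brains. The first group is 3 adult Snord115-KO brains, in which a CRISPR-Cas9 deletion removed the whole Snord115 snoRNA array from the paternally inherited, expressed allele. The authors backcrossed this line to C57BL/6J ahead of their behavioral and metabolic work. The second group is 3 embryonic (E16.5) brains of another line, lacking both Snord115 and Snord116. No further description of that line was found in the sources used here. Both groups thus lack Snord115, and the stage differs between them together with the Snord116 genotype. The 2 cannot be told apart. Neither can a change in the share of cells of one type be told apart from a change within cells, since whole brains were used. WT brains are not among the samples, and WT values are quoted below as the authors' means and SDs.

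A methyl group on the ribose 2' oxygen blocks alkaline cleavage of the RNA chain, so that few sequenced fragments begin or end at a methylated nucleotide. Box C/D snoRNAs place these groups: the snoRNA pairs with rRNA, and the methyltransferase Fibrillarin modifies the nucleotide that faces the fifth base before the snoRNA's D or D' box, whose usual sequence is CUGA. Sites in the first part of 28S rRNA lie away from the peptidyl transferase centre, which is built mainly from the later part of the molecule. Snord115 and Snord116 have no known guiding role in rRNA.

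The rRNA around 6 of the sites is shown because these sites either sit close together or carry differences described below. Not every site with such a difference is shown, and LSU-A1521, LSU-A1858 and LSU-C1868 are left out. Each run covers 25 nucleotides of mouse 28S rRNA, 5′ to 3′, from the deposited position tables, and the capital is the methylated nucleotide.
LSU-A389: agaacuuugaagAgagaguucaaga
LSU-A391: aacuuugaagagAgaguucaagagg
LSU-G1303: cccacccgacccGucuugaaacacg
LSU-C1327: ggaccaaggaguCuaacgcgugcgc
LSU-G1509: gcguuaggacccGaaagauggugaa
LSU-A1511: guuaggacccgaAagauggugaacu

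The overview table names no guide, so annotated mouse snoRNAs were searched for an element that pairs with at least 9 consecutive nucleotides around a site and puts the fifth base before a box opposite it. The best element for each site is shown because it is what ties a site to a gene. Runs are 5′ to 3′, from the GENCODE vM21 transcripts (GRCm38), with the facing base and the box in capitals.
Gm25894, facing LSU-A389: ugaacucucUcuuuCUGA
Gm25789, facing LSU-A391: cuugaacucUcucaCUGA
Snord21, facing LSU-G1303: uguuucaagaCgggaCUGA
Gm23344, facing LSU-A1313: uugguccgUguuuCUGA
Snord104, facing LSU-C1327: gcacgcguuaGacugCUGA
Snord2, facing LSU-G1509: aucaucuuuCgggaCUGA
Snord32a, facing LSU-A1511: ucaccaucuUucguUUGA
Snord80, facing LSU-A1521: cauagUucagCAGA
Snord80, facing LSU-G1612: gucuuucgcuCcuauCUGA
Rnu73b, facing LSU-G1747: uguuucgguCccaaAUGA
Gm23615, facing LSU-A1858: gugccaguucUgcugCUGA
Gm25744, facing LSU-C1868: ccgcaGcgcgCUGA

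All 12 sites had such an element, as did 92.7% of the other 96 listed sites, against 31.6% of the 6572 rRNA positions without a listed site. With at least 11 pairs, 10 of the 12 sites had one (83.3%), against 71.9% of the other 96 listed sites and 3.94% of the positions without a listed site. A match is a description of the letters and not a shown guide, and the rule for it was settled after first matches had been seen. The shortest elements, of 9 pairs, faced LSU-A1521 and LSU-C1868. The elements facing LSU-A1511, LSU-A1521 and LSU-G1747 stood before the boxes UUGA, CAGA and AUGA, each 1 base away from CUGA.

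RefSeq calls Gm25894 SNORD26, Gm25789 SNORD81, Gm23344 SNORD18, Gm23615 SNORD38 and Gm25744 SNORD48. Most of these genes lie within host genes, from whose introns snoRNAs are usually cut. Gm25894 lies within Snhg1 (GRCm38 chr19:8724251-8724325, plus strand), and Gm25789 (chr1:161038308-161038383, plus strand) and Snord80 (chr1:161037601-161037681, plus strand) lie within Gas5. Snhg1 and Gas5 are non-coding hosts known mainly for their snoRNAs. Snord21, Gm23344, Snord32a and Rnu73b lie within Rpl5, Rpl4, Rpl13a and Rps3a1, which encode ribosomal proteins, and Snord2 lies within Eif4a2, which encodes an RNA helicase of translation initiation. Gm25744 lies within 1110038B12Rik (chr17:34952013-34952075, minus strand), and no host gene was matched for Snord104 (chr11:106500993-106501062, plus strand) or for Gm23615 on the X chromosome. For SNORD18, SNORD38 and SNORD81 more than 1 annotated copy matched, so a site cannot be tied to a single copy.

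Nearly all of these sites were highly methylated in both groups. The measured quantity is the fraction methylated, which is 1 minus the read ends at the nucleotide (5' plus 3') over the read ends expected from 6 neighbours on each side. In the adult Snord115-KO brains the mean fraction reached 0.75 at all 12 sites and 0.90 at 11 of them. In the E16.5 brains 10 sites reached 0.75 and 8 reached 0.90. The median of the 12 means was 0.959 in adult brains and 0.932 in E16.5 brains, close to the medians of all 108 listed sites, 0.963 in adult brains and 0.928 in E16.5 brains. The lowest means were those of LSU-A1313 in adult brains, 0.851, and of LSU-C1868 in E16.5 brains, 0.637. The highest were those of LSU-A1858 in adult brains, 0.986, and of LSU-A391 in E16.5 brains, 0.987. Among the methylated nucleotides 6 were A, 4 G, 2 C and none U, where 20 of the other 96 listed sites are U.

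The libraries held between 9621368 and 20064865 read ends. The number expected from the neighbours at the 12 sites ran from 351, at LSU-G1509 in E16.5 brain 2, to 7453, at LSU-A1858 in E16.5 brain 3. Reads carry no molecular identifiers, so errors are given as the spread between brains. In single libraries the 3' ends were raised at sites followed by a certain base. At the 96 other listed sites the median log2 ratio of the 3' to the 5' unprotected share before a C was 4.27 in adult brain 1, 2.83 in E16.5 brain 1 and 1.79 in E16.5 brain 3. Before an A it was 1.34 and 1.55 in adult brains 2 and 3 and 2.24 in E16.5 brain 2. LSU-A1313 and LSU-A1521 are followed by C, and LSU-G1509 and LSU-A1511 by A, so that their values are given below on the 5' ends too.

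The per-brain counts allowed 1 contrast, of adult Snord115-KO against E16.5 double-KO brains. The question it answers is at which of these sites these groups differ beyond the spread between brains. The counts at all 108 listed sites were tested with edgeR (quasi-likelihood), with the expected read ends as a log offset. The log2 change refers to the unprotected share, adult over E16.5, and a negative value means a higher fraction methylated in the adult. Of the 12 sites 3 passed an adjusted p of 0.05, LSU-G1303, LSU-C1327 and LSU-C1868, against 26.9% of the 108 sites (29 sites). All 3 were higher in adult brains, and calls in that direction made up 25.9% of the 108 sites (28 of the 29). Without adult brain 2 the count over the 108 sites was 10, and the 3 sites became 2. The 2 groups of brains did not overlap at 4 of the 12 sites, these 3 and LSU-A389, against 42.6% of all sites. The mean fraction was higher in adult brains at 11 of the 12 sites, and at 95 of all 108.

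That general shift sets the scale for single sites. The median log2 change over the 108 sites was -0.87, and it was -0.12 when TMM factors, which centre the libraries on each other, were added to the offset. Under that centring 6 of the 12 sites were higher in adult brains. Of the 12 only LSU-C1868 then passed the test (log2 change -2.03, edgeR adjusted p = 0.0366), against 10.2% of the 108 sites. Measured from the median of all sites, the log2 changes were -0.49 at LSU-G1303, -0.90 at LSU-C1327 and -1.88 at LSU-C1868.

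LSU-C1868 had the largest difference of the 12 sites. Its fraction was 0.939, 0.957 and 0.942 in the adult Snord115-KO brains and 0.738, 0.550 and 0.622 in the E16.5 brains. All adult values lay above all E16.5 values, and the E16.5 brains were also more unlike each other. The means were 0.946 ± 0.010 in adult brains and 0.637 ± 0.095 in E16.5 brains (SD, n = 3 each). The read ends found were 108 of 1757 expected, 156 of 3606 and 94 of 1626 in adult brains, against 409 of 1560, 476 of 1057 and 1821 of 4821 in E16.5 brains. The log2 change was -2.75 ± 0.43 (SE), with an edgeR adjusted p of 0.00578, and between 5.32e-12 and 0.822 over the alternative settings.

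The 3' ends carried this difference at LSU-C1868, and the 5' ends did not. On 5' ends alone the fraction was 0.941, 0.926 and 0.933 in adult brains and 0.933, 0.959 and 0.927 in E16.5 brains, so the groups overlapped. The log2 change on 5' ends was 0.10 ± 0.33 (edgeR adjusted p = 0.822). On 3' ends alone the fraction was 0.938, 0.966 and 0.946 in adult brains and 0.694, 0.458 and 0.541 in E16.5 brains. The log2 change on 3' ends was -3.11 ± 0.65 (edgeR adjusted p = 0.0308), and LSU-C1868 was the 1 site of the 12 that passed on these ends, against 6.54% of the 107 sites tested on them.

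The nucleotide after LSU-C1868 is a U. At the other listed sites before a U, the median log2 ratio of the 3' to the 5' unprotected share was 0.72, 0.51 and 0.57 in E16.5 brains 1, 2 and 3. At LSU-C1868 it was 2.15, 3.63 and 2.65 in the same libraries, and 0.07, -1.11 and -0.31 in adult brains 1, 2 and 3. Of the 24 other sites before a U, 3, 0 and 2 had a ratio as high as that of LSU-C1868 in E16.5 brains 1, 2 and 3. LSU-C1868 thus lay at the upper end of these sites in the E16.5 libraries. In E16.5 brain 2 it lay above all of them, the highest other ratio being 3.34. In adult brains 1, 2 and 3 the sites with a ratio as high numbered 11, 18 and 14 of the 24. The nucleotide just before LSU-C1868, a G without a listed site, also scored above most positions, with fractions of 0.577, 0.547 and 0.398 in adult brains and 0.718, 0.740 and 0.742 in E16.5 brains. This G enters the expected value of LSU-C1868 with full weight. With 2 neighbours on each side the mean of LSU-C1868 was 0.933 in adult brains and 0.378 in E16.5 brains, and the part of the neighbours and of the kind of ends in the result was not tested further.

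LSU-C1327, faced by Snord104, was the most even of the 12 sites in adult brains. Its fraction was 0.986, 0.986 and 0.984 in adult brains and 0.956, 0.953 and 0.942 in E16.5 brains, without overlap. The means were 0.985 ± 0.001 in adult brains and 0.950 ± 0.007 in E16.5 brains (SD, n = 3 each). The log2 change was -1.77 ± 0.24 (SE, edgeR adjusted p = 0.00446). Both kinds of ends gave a change of like size, -1.82 ± 0.38 on 5' ends (edgeR adjusted p = 0.00175) and -1.57 ± 0.40 on 3' ends (edgeR adjusted p = 0.0552). The call held without each brain in turn, and with TMM factors the change was -1.02 (edgeR adjusted p = 0.0546).

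LSU-G1303, faced by Snord21, had fractions of 0.958, 0.971 and 0.948 in adult brains and 0.878, 0.912 and 0.894 in E16.5 brains. The groups did not overlap, with means of 0.959 ± 0.011 in adult brains and 0.895 ± 0.017 in E16.5 brains (SD, n = 3 each). The log2 change was -1.36 ± 0.33 (SE, edgeR adjusted p = 0.0235). On 5' ends alone it was -1.45 ± 0.43 and on 3' ends alone -1.28 ± 0.42, so both kinds of ends gave about the same change. The call was narrow: the edgeR adjusted p was 0.0514 without adult brain 1, 0.0860 without adult brain 2, 0.0592 without E16.5 brain 1 and 0.0542 without E16.5 brain 3. With TMM factors the change was -0.62 (edgeR adjusted p = 0.219).

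LSU-A1313, which lies 10 nucleotides after LSU-G1303, showed the widest spread between brains of all 108 sites in both groups. Its fraction was 0.588, 0.978 and 0.988 in adult brains and 0.103, 0.979 and 0.883 in E16.5 brains. The low values were those of brain 1 in each group, with E16.5 brain 3 in between. The 3' ends found were 732, 0 and 3 in adult brains and 932, 10 and 244 in E16.5 brains, and the libraries with many were those with raised 3' ends before a C. On 5' ends alone the fraction was 0.969, 0.974 and 0.984 in adult brains and 0.971, 0.950 and 0.985 in E16.5 brains, so that all 6 brains then lay close together. The log2 change was -1.21 ± 1.68 on both kinds of ends (edgeR adjusted p = 0.592) and -0.27 ± 0.46 on 5' ends (edgeR adjusted p = 0.643).

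LSU-A389 and LSU-A391 lie 2 nucleotides apart, and each is among the neighbours from which the other is scored. Their elements, in SNORD26 and SNORD81, overlap the same stretch of 28S rRNA. LSU-A389 had fractions of 0.984, 0.981 and 0.977 in adult brains and 0.975, 0.975 and 0.976 in E16.5 brains, without overlap but only just. Its log2 change was -0.38 ± 0.25 (SE, edgeR adjusted p = 0.289). It was -1.17 ± 0.44 on 5' ends alone (edgeR adjusted p = 0.0370) and -0.26 ± 0.37 on 3' ends alone (edgeR adjusted p = 0.706). LSU-A391 had fractions of 0.989, 0.976 and 0.976 in adult brains and 0.988, 0.983 and 0.989 in E16.5 brains, and the groups overlapped. It was the 1 site of the 12 with a lower mean in adult brains (0.980 against 0.987 in E16.5 brains), with a log2 change of 0.56 ± 0.39 (edgeR adjusted p = 0.317), and -0.62 ± 0.55 on 5' ends alone (edgeR adjusted p = 0.358).

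LSU-G1509 and LSU-A1511 are a second pair 2 nucleotides apart, with LSU-A1521 a further 10 nucleotides on. Their elements lie in Snord2, Snord32a and Snord80, each from a different host gene. LSU-G1509 had fractions of 0.970, 0.953 and 0.940 in adult brains and 0.902, 0.946 and 0.922 in E16.5 brains. The groups overlapped, and the log2 change was -0.76 ± 0.36 (SE, edgeR adjusted p = 0.161). On 5' ends alone the fraction was 0.969, 0.946 and 0.934 in adult brains and 0.924, 0.988 and 0.937 in E16.5 brains. Its log2 change was -0.14 ± 0.46 on 5' ends (edgeR adjusted p = 0.810) and -1.72 ± 0.41 on 3' ends (edgeR adjusted p = 0.0534), so the difference between the means lay mostly in the 3' ends. With 2 neighbours on each side LSU-G1509 passed the test (edgeR adjusted p = 0.0350), the means then being 0.930 in adult brains and 0.851 in E16.5 brains.

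At LSU-A1511 a single library set the result. The fraction was 0.908, 0.939 and 0.908 in adult brains and 0.962, 0.766 and 0.962 in E16.5 brains, with E16.5 brain 2 apart from the other two. In that library 88 read ends on the 3' side were found of 228 expected, against 13 of 260 and 14 of 351 in E16.5 brains 1 and 3. On 5' ends alone the fraction was 0.983, 0.984 and 0.975 in adult brains and 0.967, 0.981 and 0.962 in E16.5 brains. The log2 change was -0.30 ± 0.75 (edgeR adjusted p = 0.763), and 1.10 without E16.5 brain 2 (edgeR adjusted p = 0.0621). The low library is one of those with raised 3' ends before an A. The adult brains also scored lower on 3' ends, at 0.803, 0.866 and 0.804, and adult brain 1 did so without a general rise of 3' ends before an A.

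LSU-A1521 had fractions of 0.893, 0.993 and 0.988 in adult brains and 0.889, 0.988 and 0.898 in E16.5 brains. The 3 lower values belong to the libraries with raised 3' ends before a C, the base that follows the site. On 5' ends alone the fraction was 0.992, 0.996 and 0.984 in adult brains and 0.978, 0.981 and 0.980 in E16.5 brains, without overlap. The log2 change was -0.86 ± 1.19 on both kinds of ends (edgeR adjusted p = 0.592) and -1.26 ± 0.48 on 5' ends (edgeR adjusted p = 0.0390).

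LSU-G1747 varied little between brains in both groups, while the SDs of LSU-G1612 and LSU-A1858 at E16.5, 0.0232 and 0.0206, were near the median SD of all 108 sites, 0.0227. LSU-G1612 had fractions of 0.952, 0.963 and 0.952 in adult brains and 0.914, 0.949 and 0.957 in E16.5 brains, which overlapped (log2 change -0.44 ± 0.36, edgeR adjusted p = 0.392). LSU-G1747 had 0.971, 0.968 and 0.962 in adult brains and 0.962, 0.957 and 0.957 in E16.5 brains, overlapping by a single brain of each group (log2 change -0.34 ± 0.28, edgeR adjusted p = 0.392). Both sites are followed by a G, and with TMM factors the sign turned at both, to 0.33 and 0.41. LSU-A1858 had 0.988, 0.988 and 0.981 in adult brains and 0.970, 0.944 and 0.984 in E16.5 brains, E16.5 brain 3 lying among the adult values. Its log2 change was -1.23 ± 0.51 (edgeR adjusted p = 0.119), and on 5' ends alone -1.81 ± 0.39 (edgeR adjusted p = 0.00222). The fractions on 5' ends were 0.986, 0.988 and 0.971 in adult brains and 0.949, 0.928 and 0.936 in E16.5 brains. On 3' ends alone the log2 change was -0.17 ± 0.65 (edgeR adjusted p = 0.908). There the fractions overlapped, with 0.992, 0.989 and 0.997 in adult brains and 0.987, 0.993 and 0.995 in E16.5 brains. The difference at LSU-A1858 thus lay mostly in the 5' ends. LSU-A1858 is followed by a G too, as are LSU-A389 and LSU-A391. Other listed sites before a G had median log2 ratios of the 3' to the 5' unprotected share that differed between libraries. In adult brains 1, 2 and 3 these medians were 0.46, -0.31 and 0.26. For E16.5 brains 1, 2 and 3 they were -0.12, -0.57 and -1.18. The part of this in the 5' results was not tested.

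Scored on the 5' ends alone, the 12 sites were more alike. Their means then ran from 0.927 to 0.991 in adult brains and from 0.894 to 0.979 in E16.5 brains, and 0.90 was reached at 12 sites in adult brains and at 10 in E16.5 brains (98 and 81 of all 108 sites). On 3' ends alone the means ran from 0.759 to 0.993 in adult brains and from 0.564 to 0.992 in E16.5 brains, and 0.90 was reached at 10 sites in adult brains and at 6 in E16.5 brains (81 and 58 of all 108 sites). The edgeR test on 5' ends called 5 of the 12 sites, LSU-A389, LSU-G1303, LSU-C1327, LSU-A1521 and LSU-A1858, against 58.3% of all 108. LSU-G1303 and LSU-C1327 were the sites called both on 5' ends and on all ends.

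Snord80 has elements for 2 of the sites. LSU-G1612 is faced with 15 pairs before a box CUGA, and LSU-A1521 with 9 pairs before a box CAGA. On 5' ends LSU-A1521 had the higher mean in both groups, 0.991 in adult brains and 0.979 in E16.5 brains, where LSU-G1612 had 0.927 in adult brains and 0.896 in E16.5 brains. On 3' ends the means stood the other way round. LSU-A1521 had 0.902 in adult brains and 0.884 in E16.5 brains, and LSU-G1612 had 0.969 in adult brains and 0.982 in E16.5 brains. Only adult brain 1 and E16.5 brains 1 and 3 had that order, and in these the 3' ends before a C were raised. In adult brains 2 and 3 and E16.5 brain 2, LSU-A1521 was higher on 3' ends too. It had 0.991, 0.991 and 0.991 there, against 0.962, 0.972 and 0.972 at LSU-G1612. LSU-A1521 thus had the higher fraction on 5' ends, and on 3' ends outside the brains with that rise. Whether Snord80 guides either site, or whether the number of pairs goes with the level, was not tested. Snord32a, which faces LSU-A1511, has a second element of 12 pairs facing SSU-G1328 in 18S rRNA. SSU-G1328 had fractions of 0.989, 0.989 and 0.971 in adult brains and 0.978, 0.965 and 0.971 in E16.5 brains, with a log2 change of -0.76 ± 0.46 (edgeR adjusted p = 0.265).

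Against WT, the comparison asks whether loss of Snord115 alone, or of Snord115 with Snord116, goes with another level at these sites. It rests on the authors' means, and no test was made here. At 11 of the 12 sites the KO and WT means were within 0.05 of each other at each age. The exception at both ages was LSU-C1868, against 12% of the 108 sites over 0.05 apart in the adult and 14.8% at E16.5. The KO mean lay above the WT mean at 3 sites and below it at 9 in the adult, and above it at 6 and below it at 6 at E16.5. Over all 108 sites it lay above at 47 and below at 60 in adult brains, and above at 38 and below at 70 in E16.5 brains.

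At LSU-C1868 the difference from WT had opposite signs at the 2 ages. The authors' adult means were 0.946 ± 0.008 in KO and 0.844 ± 0.011 in WT brains, and the KO mean was higher by 0.102. At E16.5 the authors' means were 0.637 ± 0.077 in KO and 0.746 ± 0.107 in WT brains, a difference of -0.109, about the size of the WT SD. Ranked by the size of the difference among the 108 sites, LSU-C1868 had rank 5 in adult brains and rank 2 in E16.5 brains. The authors name LSU-C1868 among a few sites that changed slightly in adult Snord115-KO brains. They report methylation there as unaffected in the E16.5 double-KO brains. The 3' and 5' ends of the WT brains were not analysed here.

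LSU-C1327 and LSU-G1303 followed in the adult among sites where KO was higher. LSU-C1327 had 0.985 ± 0.001 in adult KO and 0.964 ± 0.006 in adult WT brains, a difference of 0.021. LSU-G1303 had 0.959 ± 0.009 in adult KO and 0.942 ± 0.014 in adult WT brains, a difference of 0.017. LSU-A1511 was lower in adult KO brains by the most, -0.027, with 0.918 ± 0.015 in KO and 0.945 ± 0.019 in WT brains. At E16.5 the differences of these 3 sites were 0.008, -0.020 and 0.006. At LSU-A1511 the adult and E16.5 differences rest on unlike scores. Its adult KO mean is the plain mean of both kinds of ends, which were 0.981 on 5' and 0.824 on 3' ends. The E16.5 KO mean is obtained with brain 2 on its 5' ends alone.

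The authors' KO mean of LSU-A1313 differs from the mean of the deposited fractions, and so does that of LSU-A1511 at E16.5. For LSU-A1313 the authors' KO means are 0.978 in the adult and 0.944 at E16.5, which the counts give when brain 1 of each age is scored on its 5' ends alone. The deposited fractions average 0.851 and 0.655, and with these the adult difference from WT would be -0.128 and the E16.5 difference -0.295, instead of -0.001 and -0.006. For LSU-A1511 at E16.5 the authors' KO mean of 0.968 is obtained with E16.5 brain 2 on its 5' ends, where the deposited fractions average 0.897. LSU-A1521, whose 3' ends were raised in 3 of the libraries, has the plain mean in the authors' table, 0.958 in the adult and 0.925 at E16.5, against 0.969 in adult WT and 0.974 in E16.5 WT brains. Its E16.5 difference of -0.049 is the second in size among the 12 sites at that age.

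The WT means also differed between the ages, and no test was made of this. The authors' WT mean was higher in the adult than at E16.5 at 10 of the 12 sites, with a median difference of 0.027, and at 87 of all 108 sites, with a median difference of 0.023. The authors' KO means had a median difference of 0.025 at the 12 sites between the adult Snord115-KO and the E16.5 double-KO brains. The sites where WT was not higher in the adult were LSU-A1511 (-0.017) and LSU-A1521 (-0.005). At LSU-C1868 the WT means differed by 0.098 between ages, where the KO means differed by 0.309.

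The sites scored higher than most of the rRNA around them, with some overlap. The highest mean at a position without a listed site was 0.926 in adult brains and 0.915 in E16.5 brains, above the means of some sites. Of the 1187 positions without a listed site in the same stretch of 28S rRNA, counting those where every brain had 100 or more expected read ends, 6 had a mean fraction of 0.75 or more in adult brains (0.505%) and 7 in E16.5 brains (0.590%). The median fraction of these positions was 0.106 in adult brains and 0.116 in E16.5 brains. The nucleotides directly before a site had a median fraction of 0.003 over the 6 brains and those directly after it 0.112. The highest of these flanking medians were 0.647 before LSU-C1868, 0.604 after LSU-G1747 and 0.561 after LSU-C1327.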

How the data were processed

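Fragments of 20–40 nt of alkali-treated total RNA were sequenced on an Ion Proton. Tools named in the submitters' processing notes are cutadapt 2.0 and Bowtie2 2.3.4.1. The authors mapped reads to curated rRNA sequences. The deposited tables hold, at 6758 rRNA positions, each brain's unnormalized counts of reads that begin (5') or end (3') there. They also hold the fraction the authors computed from these counts. It was recomputed here as 1 minus observed over expected read ends, the expected value being the mean of 6 neighbours on each side with weights 1.0 to 0.5 in steps of 0.1. It was set to 0 where negative. It equalled the deposited one within 1e-05 at all 28S positions. The authors' overview table holds pooled mean scores and SDs of KO and WT brains, and is quoted as such. Some of its KO means differ from the mean of the deposited fractions. Which libraries were scored on 5' ends alone is not stated and was inferred here from the counts. The authors' KO SDs divide by the number of brains, and those computed here by that number less 1. A column without a heading, with 6 values, was not used.

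Read ends at the 108 listed sites were tested with edgeR 4.0.16 (R 4.3.3) and adjusted by Benjamini-Hochberg over all listed sites. The labels number 3 samples per group, and p-values set the difference between the groups against the spread between these samples. The script was tested on simulated counts. Other computations used Python 3.11.15, numpy 2.4.6, pandas 2.3.3 and scipy 1.17.1. Alternatives were other neighbours and weights, either kind of ends by itself, fits without single brains, a replicate block, limma 3.58.1 on log2(1 minus fraction plus 0.01 or 0.001), DESeq2 1.42.0, TMM factors, a fraction threshold of 0.90 and a minimum of 100 or 1000 for the expected value. The expected number of read ends was at least 351 at the 12 sites in every brain.

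Every site found by the rule is named, and other sites only where they share a snoRNA with one. The plan had been to take guides from the overview table. As it names none, they came from pairing against 1507 annotated snoRNA transcripts, with at most 2 G-U pairs and at most 1 mismatch to the box. The sites, lists and tests were chosen with earlier results of these data known. For the embryonic brains 1 legend of the study gives the stage as adult, while the labels give E16.5, which is used here.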

Additional observations from a re-analysis of the deposited data

Results flagged for a closer look

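At 3 of the 12 sites, and at 14 of all 108, every KO brain lay on one side of the authors' WT mean in the adult and on the other side at E16.5. This difference between ages was not tested, since WT values exist here only as means. At LSU-C1868 the KO brains averaged 0.102 above the WT mean in adults and differed by -0.109 at E16.5. At LSU-G1303 these differences were 0.0167 and -0.0199 in adults and embryos, and at LSU-A391 -0.0103 and 0.0298. The authors' E16.5 WT SD was 0.107 at LSU-C1868, 0.0313 at LSU-G1303 and 0.0359 at LSU-A391, and the E16.5 differences were about as large as these SDs or smaller. Their adult WT SD was 0.0106 at LSU-C1868, 0.0139 at LSU-G1303 and 0.00136 at LSU-A391. The adult differences were larger in size than these adult SDs.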

How the results depend on the processing

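The count of 29 sites past the threshold among the 108 was 63 on 5' ends alone, 7 on 3' ends alone, 49 when 3' ends were dropped before the bases that raised them in a library (the next-base setting, chosen after seeing the data), 47 with DESeq2 and 11 with TMM factors. It ran from 10 to 30 without single brains. The count of 3 among the 12 sites was 5 on 5' ends, 1 on 3' ends and 1 with TMM factors, and 2 or 3 without single brains. LSU-C1327 and LSU-C1868 were called without each brain in turn. The deviations of same-numbered adult and E16.5 brains had correlations of 0.67, 0.45 and -0.18. Those of adult brain 3 and E16.5 brain 2 had a correlation of 0.64. The other pairs of unlike number ran from -0.68 to 0.14. Whether the numbers pair the brains cannot be told from these values. With the replicate number as a block 31 of the 108 and 3 of the 12 sites were called.

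The log2 change turned sign at uncalled sites. With TMM factors it was 0.37 at LSU-A389, 0.020 at LSU-G1509, 0.34 at LSU-A1511, 0.33 at LSU-G1612 and 0.41 at LSU-G1747. With 2 neighbours on each side it was 0.078 at LSU-A389 and -0.22 at LSU-A391. At LSU-A391 it was -0.45 with the median of the neighbours and -0.62 on 5' ends. At LSU-A1313 it was 0.089 with the next-base setting and ran from -4.31 to 1.10 without single brains. At LSU-A1511 it was 0.15 on 3' ends, 0.41 with the next-base setting, 0.25 with the block, 0.13 and 0.20 with limma, and from -0.72 to 1.10 without single brains. On 3' ends it was 0.77 at LSU-G1612 and 0.43 at LSU-G1747. Among called sites, LSU-C1868 turned to 0.10 on 5' ends. The causes were not tested. With at least 1000 expected read ends 81 sites were tested, and LSU-G1303 was not among them.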

Other observations

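In the stretch between the sites, 4 nucleotides without a listed site had a mean fraction of 0.75 or more in both groups, at mouse 28S positions 663, 667, 687 and 688. The C at position 663 had 0.926 ± 0.018 in adult brains and 0.888 ± 0.069 in E16.5 brains (SD, n = 3 each), from as few as 116 expected read ends. The adjoining G nucleotides at 687 and 688 had 0.871 and 0.859 in adult brains and 0.915 and 0.863 in E16.5 brains. With at least 1000 expected read ends, the U at position 1521 was the 1 such nucleotide in adult brains (0.768 ± 0.119), and none reached 0.75 in E16.5 brains. A high score alone does not show a methyl group.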
